A study of Homo sapiens with 4 samples.

Results

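The transcripts of fibroblast growth factor (FGF) ligands and receptors were read in SUM159, a cell line of triple-negative breast cancer. Under combined palbociclib and indisulam, FGF1 was among the genes with the highest ratios to untreated cells. The genes examined were 8 of the 60279 in the count tables, comprising the ligands FGF1, FGF2 and FGF5 and the receptors FGFR1, FGFR2, FGFR3, FGFR4 and FGFRL1. They were chosen by name. FGF1 was chosen because earlier readings of these same counts had placed it among the genes highest in the combination, so its own ratios are given as a description, and the other ligands and the receptors were taken as a contrast to it.

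RNA sequencing covered 4 conditions with 1 library each, namely untreated cells, cells given palbociclib, cells given indisulam, and cells given both drugs. Palbociclib is an inhibitor of CDK4 and CDK6, kinases that drive entry into S phase, and indisulam is a sulfonamide that brings the splicing factor RBM39 to a ubiquitin ligase for degradation. The sample labels gave 0.5 µM palbociclib and 2 µM indisulam for 10 days, whereas the series text gave 2 µM and 3 µM for 16 h with technical duplicates. The deposited record did not reconcile these sources. The paper gives the label values for its SUM159 sequencing of senescence gene sets, and the series values for its sequencing of splicing errors. For the splicing experiment it names the aligner Hisat2, whereas the submitters' processing notes name TopHat2. All cells came from 1 line, grown with serum, insulin and hydrocortisone, and no replicate library was analysed here, so that no difference had a replicate check.

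FGFs are signalling proteins that bind receptor tyrosine kinases together with heparan sulfate chains on the cell surface, and the receptors then act through adaptor proteins, RAS and the ERK kinases. FGF1 and FGF2 lack a classical signal peptide and leave the cell by an unconventional route, while FGF5 is secreted through the usual pathway. FGFR1 to FGFR4 carry a kinase domain. FGFRL1 binds FGFs but lacks that domain.

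Reads assigned to genes numbered from 12555908 to 16712174 a library, and 3 reads, the floor used here, corresponded to between 0.180 and 0.239 CPM, a count scaled to the gene total of its library. Of the markers of the line, VIM was between 2642.5 and 4598 CPM and CD44 between 706 and 883 CPM, while ESR1 and PGR had at most 16 and 3 reads. ERBB2 was between 109.6 and 143 CPM, and the epithelial markers were split, with KRT8 between 416 and 575 CPM and KRT18 between 162 and 249 CPM but EPCAM and CDH1 each at 1.95 CPM or less. Among markers of other cells, CD3E had no read in any library. PTPRC was between 11.1 and 17.5 CPM, and PECAM1, an endothelial marker, was at 15.2 CPM untreated, 40.9 with palbociclib, 17.5 with indisulam and 20.4 with both. Their part in the results was not tested.

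All 3 ligands had their highest level in the combination library and their lowest in the untreated library, as did FGFR1. How many of all genes did so was not counted. The ligands differed 2-fold or more between these libraries. No receptor differed 2-fold between any pair of libraries in which it could be called. The log2 ratio of combination to untreated was 7.34 for FGF1, 2.25 for FGF5 and 1.82 for FGF2. It was 0.53 for FGFR1 and 0.23 for FGFRL1. Calls required a ratio of 2-fold or more and a 95% interval that left out a ratio of 1. This interval, given in brackets below, covers counting error only. The calls were made over the 14269 genes with a mean of at least 1 CPM, of which 5 were FGF ligands or receptors. FGFR2, FGFR3 and FGFR4 lay below that mean. FGF1 reached it through the treated libraries alone, having been at 0.159 CPM in untreated cells, so its passing the filter already required a difference.

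**Figure D1:**
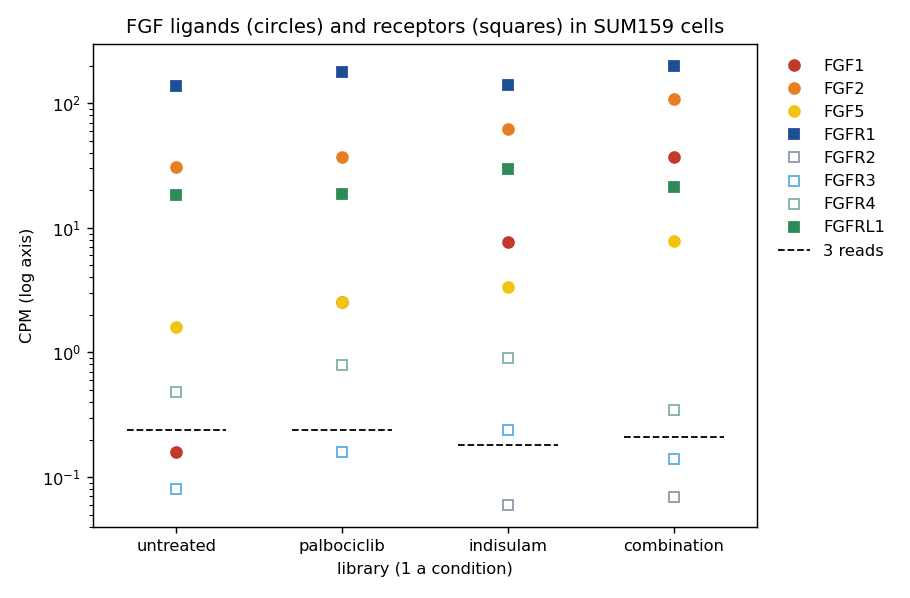
CPM (log axis) of the 3 ligands (circles) and 5 receptors (squares) in each of the 4 libraries, with the level of 3 reads as dashed lines and genes under a mean of 1 CPM as open symbols. FGF1 climbs from below the 3-read line to 37.2 CPM while FGFR1 stays between 138 and 199 CPM. FGFR2 had no read in untreated and palbociclib cells and is not drawn there, and the FGF1 and FGF5 points coincide at 2.52 CPM with palbociclib.

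FGF1 (ENSG00000113578), the acidic FGF, lies on the minus strand of chromosome 5 at 142592178 to 142698070 (GRCh38). Untreated cells gave 2 reads, palbociclib 32, indisulam 128 and the combination 534. On the CPM scale these were 0.159, 2.52, 7.66 and 37.2. Each library with a drug was above the untreated one, indisulam above palbociclib, and the combination above either drug. In RNA from whole cultures, a larger share of cells with the transcript and more transcript per cell cannot be told apart.

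The combination to untreated ratio of FGF1 was 233-fold (64.3 to 1933), an interval whose width came from the 2 untreated reads. Against untreated cells, FGF1 was 15.8-fold (4.04 to 136) with palbociclib and 48.1-fold (13.04 to 401) with indisulam. The ratios that did not rest on the untreated library were narrower. The combination was 14.7-fold (10.3 to 21.8) above palbociclib and 4.86-fold (3.997 to 5.94) above indisulam.

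By the log2 ratio of combination to untreated, FGF1 ranked 2 of 14269 genes. The gene above it was CSF2, which encodes the cytokine GM-CSF, with 1, 47, 274 and 888 reads in untreated, palbociclib, indisulam and combination cells. The genes below it were SERPINB2, a serpin, with 0, 3, 45 and 160 reads and the long non-coding RNA DIRC3 with 0, 17, 76 and 152 reads. FGF1 ranked 26 for palbociclib and 16 for indisulam against untreated. It ranked 67 for the combination against palbociclib and 59 against indisulam. Its place was thus higher where its few untreated reads were the denominator. A total of 279 genes were called higher in the combination than in every other library, and FGF1 and FGF5 were among them. Within those 279, FGF1 ranked 2 by the ratio to untreated, 33 by the ratio to palbociclib and 35 by the ratio to indisulam.

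FGF2 (ENSG00000138685), the basic FGF, lies on the plus strand of chromosome 4 at 122826682 to 122898236. Reads numbered 384 in untreated cells, 474 with palbociclib, 1046 with indisulam and 1551 with both drugs, or 30.6, 37.3, 62.6 and 108.0 CPM. The level was already well above the floor in untreated cells, and indisulam and the combination stood above the rest. The combination was 3.53-fold (3.16 to 3.96) above untreated, 2.89-fold (2.61 to 3.21) above palbociclib and 1.73-fold (1.59 to 1.87) above indisulam. Indisulam alone was 2.05-fold (1.82 to 2.31) above untreated, at the edge of the 2-fold rule. Palbociclib alone was 1.22-fold (1.07 to 1.40) above untreated and was not called. FGF2 shares 804 exon bases, 11.8% of its exon length, with NUDT6 on the opposite strand, and whether counting used strand was not given in the sources used here. NUDT6 had 215, 100, 187 and 84 reads in untreated, palbociclib, indisulam and combination cells, a log2 ratio of combination to untreated of -1.54, opposite in sign to that of FGF2.

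FGF5 (ENSG00000138675), a ligand known for ending the growth phase of hair, lies on the plus strand of chromosome 4 at 80266639 to 80336680. Its reads were 20 in untreated cells, 32 under palbociclib, 56 under indisulam and 113 under both, or 1.59, 2.52, 3.35 and 7.87 CPM. The order of the libraries was that of FGF1 and FGF2, at the lowest depth of the 3. The combination was 4.94-fold (3.05 to 8.39) above untreated, 3.12-fold (2.09 to 4.78) above palbociclib and 2.35-fold (1.69 to 3.30) above indisulam. Indisulam was 2.104-fold (1.24 to 3.70) above untreated. For palbociclib the ratio of 1.58 (0.878 to 2.92) was not separated from 1 at this depth. CFAP299, which shares 136 exon bases with FGF5 on the same strand, had at most 4 reads in any library.

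The sequence upstream of each ligand gene is shown because the ligands had the same order across the libraries. That order was not particular to them. FLRT2, EXT1 and FOSL1, described below, had it as well, and its share over all genes was not counted. Each run is the part of the 250 bases before an annotated start that lies outside any exon, from RefSeq on GRCh38.p14, written 5′ to 3′ on the strand of the gene. FGF1 has 4 start windows in that table, FGF5 has 2 and FGF2 has 1, and the outermost is shown. Gene counts do not tell which start was used. Capitals mark matches, on either strand, to GGGCGG (the GC box, read as CCGCCC on the other strand) and CCAAT (read as ATTGG). The positions are chr5:142698071-142698320 for FGF1 (minus strand), chr4:122826581-122826681 for FGF2 and chr4:80266338-80266587 for FGF5 (both plus strand).
FGF1: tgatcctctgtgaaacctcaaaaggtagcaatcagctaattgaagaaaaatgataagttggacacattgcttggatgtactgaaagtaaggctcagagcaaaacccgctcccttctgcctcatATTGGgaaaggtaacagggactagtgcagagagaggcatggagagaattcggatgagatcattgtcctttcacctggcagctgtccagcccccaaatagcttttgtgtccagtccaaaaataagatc
FGF2: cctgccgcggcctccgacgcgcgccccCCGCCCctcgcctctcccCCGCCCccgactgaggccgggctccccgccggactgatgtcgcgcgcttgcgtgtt
FGF5: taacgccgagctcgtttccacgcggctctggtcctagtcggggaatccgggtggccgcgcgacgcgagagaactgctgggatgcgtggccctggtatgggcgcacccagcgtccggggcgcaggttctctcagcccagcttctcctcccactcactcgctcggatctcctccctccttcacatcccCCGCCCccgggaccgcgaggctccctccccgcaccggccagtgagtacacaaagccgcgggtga

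The FGF1 stretch held a CCAAT match at position -127 from the start and no GC box. FGF2 held 2 GC boxes and FGF5 held 1. GC boxes were found in 42.5% and CCAAT in 32.0% of all 34943 promoter windows of 250 bases, so these matches are common ones. The FGF2 stretch, at 101 bases, is shorter than those windows. None of the 3 stretches held the AP-1 letters TGANTCA (in 6.59% of windows), the CRE letters TGACGTCA (1.63%), the ETS letters CCGGAAGT (3.39%), the TATA letters TATAAA (10.8%) or the TEAD letters GGAATG (11.9%). At other starts, the FGF1 window at 142644239 held a GC box, 2 TEAD matches and an AP-1 match at position -41, the last past the first exon base in the window, and the FGF1 window at 142686090 held a GC box. The other FGF5 window held 2 overlapping TATA matches. A match describes letters in these windows and says nothing about binding.

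FGFR1 (ENSG00000077782), a receptor kinase for many FGFs, lies on the minus strand of chromosome 8 at 38400215 to 38468834. Reads numbered 1727 in untreated cells, 2247 with palbociclib, 2333 with indisulam and 2860 with both drugs, or 138, 177, 139.6 and 199 CPM. Both libraries with palbociclib stood above both without it. Palbociclib alone had a log2 ratio to untreated of 0.36 (0.27 to 0.46), and the combination had one to indisulam of 0.51 (0.43 to 0.59), a pair of ratios that share no library. Indisulam alone was at 0.02 (-0.07 to 0.11) relative to untreated, and the combination was at 0.17 (0.09 to 0.25) relative to palbociclib. The combination differed from untreated by 0.53 (0.45 to 0.62), and none of these ratios reached 2-fold. LETM2 shares 138 exon bases, 0.802% of the exon length of FGFR1, on the opposite strand.

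FGFRL1 (ENSG00000127418), the receptor without a kinase domain, lies on the plus strand of chromosome 4 at 1009936 to 1026898. Its reads were 229 in untreated cells, 237 under palbociclib, 494 under indisulam and 307 under both, or 18.2, 18.7, 29.6 and 21.4 CPM. Indisulam alone gave the highest level, whereas the other 4 tested genes were highest in the combination. Indisulam alone had a log2 ratio to untreated of 0.69 (0.47 to 0.93), and the combination had one to palbociclib of 0.19 (-0.05 to 0.45). The combination was below indisulam by a log2 ratio of -0.47 (-0.68 to -0.26), and no ratio of FGFRL1 reached 2-fold.

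The remaining kinase receptors had few reads, with FGFR3 and FGFR2 at or near the floor and FGFR4 above it. FGFR4 (ENSG00000160867, chromosome 5, 177086905 to 177098144) had 6, 10, 15 and 5 reads in untreated, palbociclib, indisulam and combination cells. FGFR3 (ENSG00000068078, chromosome 4, 1793293 to 1808872) had 1, 2, 4 and 2 reads in that order. FGFR2 (ENSG00000066468, chromosome 10, 121478332 to 121598458) had 0, 0, 1 and 1. For these genes every interval included a ratio of 1, and differences were not detectable at this depth.

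**Figure D2:**
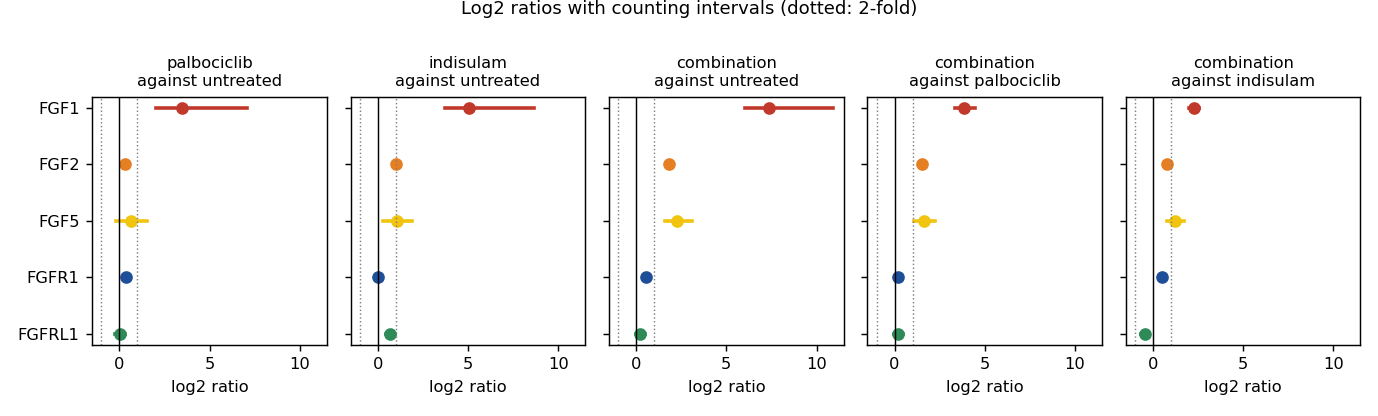
Log2 ratios (points) with 95% counting intervals (bars) of the 5 tested genes, in 5 comparisons of single libraries, with dotted lines at 2-fold. FGF1 is the rightmost gene in every panel, at 7.34 for the combination against untreated. FGFR1 and FGFRL1 stay within the dotted lines.

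The calls were next set beside those over all genes. For palbociclib against untreated, 1 of the 5 genes was called higher (FGF1) and none lower, where 5.84% of all tested genes were called higher and 4.87% lower. For indisulam against untreated, the 3 ligands were called higher and no gene lower, against 8.42% and 6.67% of all genes. That count fell to 1 (FGF1) with TMM, upper-quartile or median-of-ratios factors, which put FGF2 and FGF5 just below 2-fold. For the combination against untreated, the 3 ligands were called higher and none of the 5 lower, against 12.9% and 10.5%. For the combination against palbociclib it was again the 3 ligands higher and none lower, against 9.51% and 7.36%. For the combination against indisulam, FGF1 and FGF5 were called higher and none lower, against 5.05% and 3.15%. The median log2 ratio over all genes lay between -0.02 and 0.07 in these comparisons, while that of the 5 genes was 0.36, 1.03, 1.82, 1.53 and 0.79 in the order given. FGF1 was selected on these ratios and is part of both the counts and the medians of the 5 genes, so both are a description.

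Low counts are called more often than high ones, and each ligand was therefore also set beside genes of its level. For the combination against untreated, 25.4% of the 2893 genes between 1 and 5 CPM were called higher, the band of FGF5. It was 16.2% of the 3339 genes between 5 and 20 CPM, the band of FGF1, and 7.09% of the 6036 genes between 20 and 100 CPM, the band of FGF2 and FGFRL1. For the combination against indisulam these shares were 14.8%, 5.84% and 1.26%. FGFR1 lay with the 2001 genes at 100 CPM or more, of which 6.95% were called higher against untreated.

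The layout of the libraries also allowed the combination to be set against the sum of both drugs given singly. To obtain this departure, both single-drug log2 ratios were subtracted from that of the combination, all to untreated. None of the 5 genes departed by 2-fold with an interval that excluded 0, against 3.83% of all genes above the sum and 3.77% below it. FGF1 was at -1.22 (-3.10 to 0.65), an interval too wide to place it above or below the sum, and the value itself went from -1.44 with a pseudocount of 0.5 to -0.26 with one of 5. FGF2 was above it by 0.50 (0.27 to 0.72), and FGF5 was at 0.57 (-0.35 to 1.496). FGFR1 was at 0.15 (0.03 to 0.27) and FGFRL1 below the sum, at -0.50 (-0.83 to -0.17). The spread of this measure over all genes between 20 and 100 CPM was 0.37, and it was 0.40 at 100 CPM or more. The values of FGF2 and FGFRL1 thus lay beyond 1 such spread and that of FGFR1 within it.

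Levels of different genes were compared per length, as RPKM, the CPM divided by the exon length in kb. That length joined all annotated exons of a gene, 17201 bases for FGFR1 against 4980 for FGF1, 6801 for FGF2 and 5958 for FGF5. Levels set between genes depend on this choice. FGF2 led the ligands in every library, at 4.50 RPKM untreated, 5.49 with palbociclib, 9.20 with indisulam and 15.9 with both. FGF1 was at 0.032, 0.506, 1.54 and 7.47 RPKM in the same order. FGF5 was at 0.267, 0.423, 0.562 and 1.32 RPKM. FGF1 thus stood below FGF5 in untreated cells, beside it with palbociclib, where each gene had 32 reads, and above it in the other libraries.

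Of the summed RPKM of the 18 secreted FGFs, FGF1 held 0.648% in untreated cells, 7.50% with palbociclib, 13.3% with indisulam and 29.8% with both. The share of FGF2 was 91.0%, 81.4%, 79.4% and 63.3%, although its own level rose. FGF5 stayed between 4.85% and 6.27%. The sum itself was 4.94, 6.75, 11.6 and 25.1 RPKM. Shares of transcript do not measure secreted protein.

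Among the receptors the order in every library was FGFR1, FGFRL1, FGFR4, FGFR3 and FGFR2, with the last pair at or near the floor. FGFR1 was at 7.996 RPKM untreated, 10.3 with palbociclib, 8.12 with indisulam and 11.6 with both. FGFRL1 was at 4.20, 4.30, 6.81 and 4.92 RPKM. FGFR1 held between 53.5% and 69.7% of the summed receptor level, the lowest share being with indisulam, where FGFRL1 held 44.9%. The receptor sum went from 12.3 RPKM untreated to 16.6 RPKM in the combination. By RPKM, the sum of the ligands was below that of the receptors in the untreated, palbociclib and indisulam libraries. It was above the receptor sum in the combination. The shares and this order depend on the exon lengths used. By CPM in the combination, FGFR1 alone was at 199, with FGF2 at 108.0, FGF1 at 37.2 and FGF5 at 7.87.

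**Figure D3:**
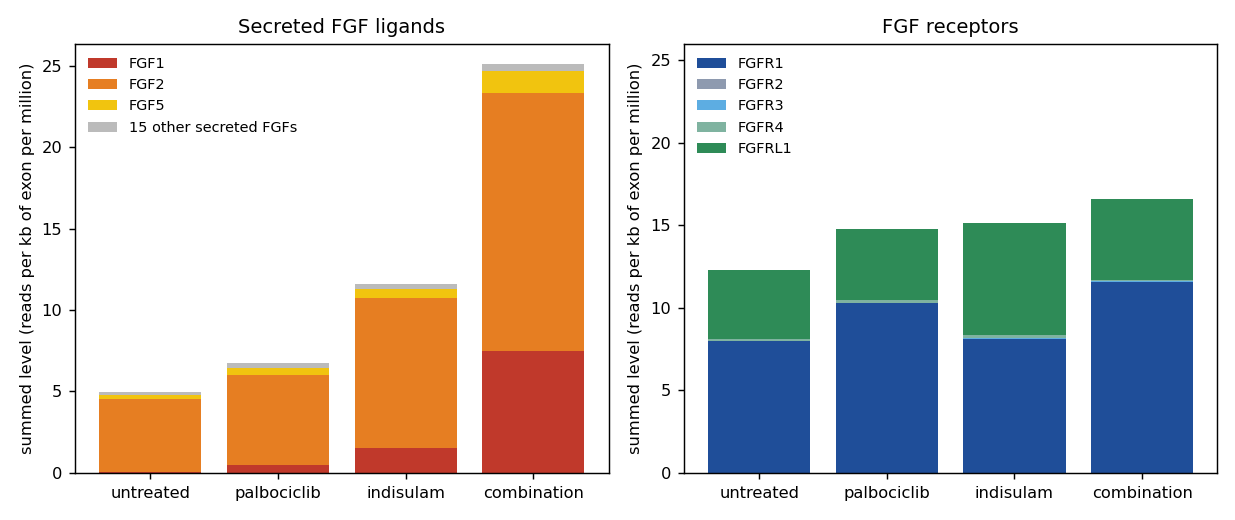
Summed RPKM of the secreted FGFs (left) and the FGF receptors (right) in the 4 libraries, each bar divided by gene. The ligand bar grows from 4.94 untreated to 25.1 in the combination with a widening FGF1 part, while the receptor bars lie between 12.3 and 16.6.

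The other 15 secreted FGFs were hardly detected. None reached a mean of 1 CPM, 9 had no read in any library, and 12 had at most 3 reads in each. FGF7, a ligand of stromal cells that acts on epithelium, was the one with 10 or more reads in some library, at 2, 6, 1 and 12 reads in untreated, palbociclib, indisulam and combination cells. FGF7 has near-identical pseudogene copies, so its counts are uncertain. The FGF homologous factors are relatives that stay inside the cell and act on sodium channels. FGF13 had 382, 495, 430 and 794 reads in the same order. Against untreated the combination had a log2 ratio of 0.86 (0.68 to 1.04), and against indisulam it had 1.10. FGF14 had 0, 1, 4 and 11 reads in that order, and FGF12 and FGF11 had at most 9.

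The genes that take part in FGF binding, export and signalling were read from lists. Of 20 co-receptor and FGF-binding genes, 10 were tested, and in the combination against untreated 3 were called higher and 2 lower, where 12.9% of all tested genes were called higher and 10.5% lower. The median log2 ratio of the 10 was 0.14, and that of all genes was 0.05. FLRT2, a membrane protein that binds FGF receptors, had 47, 86, 151 and 220 reads in untreated, palbociclib, indisulam and combination cells, a log2 ratio of 2.01 (1.57 to 2.52). FLRT1, of the same family, went the other way, with 32, 2, 4 and 6 reads in that order. Its mean of 0.84 CPM left it untested. SDC2 and SDC4, heparan sulfate proteoglycans of the syndecan family, had ratios of 1.68 and 1.10. The glypicans GPC6 and GPC2 were lower, at -1.78 and -1.26, although GPC2 rested on 18 and 8 reads. The other 2 tested syndecan genes were not called in this comparison. SDC1 had 637, 298, 509 and 756 reads in untreated, palbociclib, indisulam and combination cells. It was called lower with palbociclib against untreated, at -1.11 (-1.31 to -0.91). Its departure from additivity was 1.90 (1.64 to 2.15).

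Of the 20 enzymes that make or modify heparan sulfate, 18 were tested. In the combination against untreated 1 was higher (12.9% of all genes) and none lower (10.5%), with a median of 0.15. Most of these enzymes averaged 20 CPM or more, where calls are rarer. Of all genes between 20 and 100 CPM, 7.09% were called higher and 7.55% lower, so the count does not set the list apart. With palbociclib against untreated 2 were higher (5.84% of all genes) and 1 lower (4.87%). With indisulam against untreated 2 were higher (8.42%) and 1 lower (6.67%). The gene called in the combination against untreated was EXT1, a polymerase of the chain. It had 699, 1274, 2417 and 2734 reads and a log2 ratio of 1.77 (1.65 to 1.90). All 6 genes listed as partners of FGF1 or FGF2 on the way out of or into the cell were tested, with 2 higher (12.9% of all genes), 1 lower (10.5%) and a median of -0.28. SYT1, a synaptotagmin of the FGF1 release complex, had 74, 117, 228 and 491 reads, a ratio of 2.52 (2.18 to 2.91). SPHK1, the sphingosine kinase, had 51, 42, 179 and 283 reads, a ratio of 2.26 (1.84 to 2.74). FIBP, which encodes an FGF1-binding protein inside the cell, was lower at -1.02 (-1.23 to -0.82).

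Of the 19 signal transducers between receptor and ERK, all were tested, none was called higher (12.9% of all genes) and 2 were called lower (10.5%), with a median of -0.03. The share called lower was that of all genes, so these calls do not set the list apart. MAPK3, which encodes ERK1, had 1091, 596, 810 and 385 reads, a log2 ratio of -1.69 (-1.87 to -1.53). The adaptor gene SHC1 was at -1.21 (-1.26 to -1.16).

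Of 17 feedback regulators and targets of FGF and ERK signalling, 16 were tested, with 3 higher (12.9% of all genes) and 3 lower (10.5%) in the combination against untreated and a median of 0.51. FOSL1, an AP-1 subunit, had 284, 503, 885 and 1003 reads, a log2 ratio of 1.62 (1.44 to 1.82). The ERK phosphatase genes DUSP6 and DUSP5 had ratios of 1.38 and 1.11. The immediate early gene FOS had 2390, 2641, 998 and 236 reads, a ratio of -3.53 (-3.73 to -3.34), and EGR1 had 3102, 3648, 2435 and 532 reads, a ratio of -2.74 (-2.87 to -2.60). SPRY1, an inhibitor of receptor kinase signalling, was at -1.27 (-1.64 to -0.92). With indisulam against untreated, 6 of these genes were higher and 1 lower, against 8.42% and 6.67% of all genes. In the combination against indisulam none was higher and 3 were lower, against 5.05% and 3.15%. Called targets were thus found in both directions against untreated. For the departure from additivity, none of the 16 was called above the sum of both drugs and 6 were called below it. Over all genes 3.83% were above and 3.77% below. The median departure of the 16 was -0.43, and its source was not tested. Many kinds of receptor feed into these genes.

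**Figure D4:**
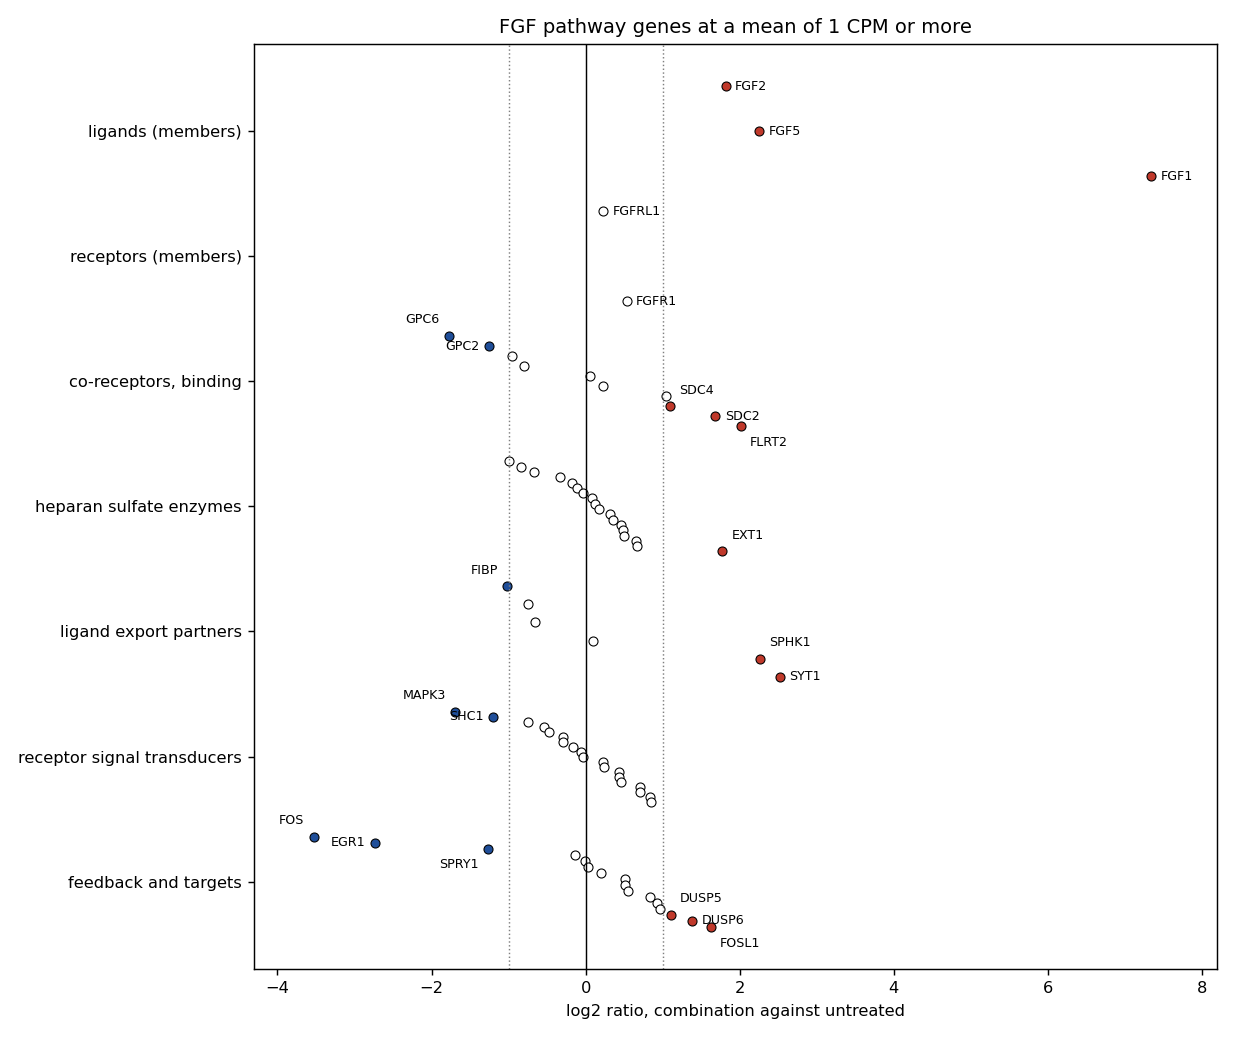
Log2 ratio of combination to untreated for each tested gene of 7 lists, with dotted lines at 2-fold, red for genes called higher, blue for genes called lower and white for the rest. The 3 ligands lie to the right, FGF1 at 7.34, the receptors lie near 0, and the targets spread from -3.53 (FOS) to 1.62 (FOSL1).

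Genes whose pattern was most like that of each ligand or receptor were found by the Euclidean distance between their 3 log2 ratios to untreated, over 4 libraries. Nearest to FGF1 were IGFN1 (distance 0.67), LINC00968 (1.09), PI3 (1.11), ENSG00000236393 (1.22) and DIRC3 (1.26). IGFN1 had 0, 7, 38 and 111 reads in untreated, palbociclib, indisulam and combination cells and PI3 had 1, 31, 44 and 279. These neighbours thus shared with FGF1 a near absence of reads in untreated cells. FGF2 was nearest to FTH1P16 (0.07), CCNE2 (0.10) and QRICH2 (0.12). FGF5 was nearest to FRK (0.08), PDCD1LG2 (0.14) and PXDN (0.19). The neighbours of FGFR1 were ENSG00000260597 (0.04), BMPR1A (0.05) and RHPN2 (0.06), and those of FGFRL1 were ZNF845 (0.08), NFKBIA (0.09) and CREBRF (0.10). The distances of FGF1 were larger than those of the rest, and its own ratios rested on 2 untreated reads. With 3 ratios that share the untreated library, such likeness is a description only.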

How the data were processed

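Poly(A) RNA of SUM159 cells was made into strand-specific libraries, 1 in each of 4 conditions, grouped by the labelled treatment. The authors deposited raw counts of reads per Ensembl gene, not normalized. The submitters' processing notes name TopHat2 2.1, HTSeq and the build GRCh38, and the annotation release, the strand setting and any pooling of duplicates were not given in the sources used here. Reads without a gene, with several genes or with several places in the genome, between 9.61% and 10.1% of all reads tallied, were kept out of totals, so genes with near-identical copies are undercounted.

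Here the counts were scaled to the total gene count, and CPM and, with exon lengths of GENCODE release 44, RPKM were computed from them. Log2 ratios used a pseudocount of 1 scaled count. Folds and their exact 95% binomial (Clopper-Pearson) intervals used none. Intervals and floors cover counting error only. The interval of the departure from additivity used a normal approximation to counting error. Its spread over genes was the scaled median absolute deviation. Of 29056 genes with a read, 14269 averaged 1 CPM or more and were tested, and genes were called at 2-fold with an interval that excluded 1. No p-value is given, since single libraries leave no spread for a count model to estimate. The code was tested on simulated data.

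The genes and the lists were chosen with earlier results of these data known. Named from each list were up to 3 called genes with the highest and up to 3 with the lowest ratio of combination to untreated, and for other FGFs those with 10 or more reads in some library. FGF11, FGF12, FGF14, FLRT1 and SDC1 were named after their values were seen. Alternatives were TMM and upper-quartile factors (edgeR 4.0.16), median-of-ratios factors (DESeq2 1.42.0), pseudocounts of 0.5 and 5, no filter, a filter at 5 CPM and a 1.5-fold threshold. Python 3.11.15, scipy 1.17.1 and R 4.3.3 were used.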

Additional observations from a re-analysis of the deposited data

Results flagged for a closer look

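In 5 of the genes named above by the naming rules, the ratio for 1 drug had opposite signs without and with the other drug. Each ratio had a counting interval that excluded 0. The difference was not tested, since each condition had 1 library. Over all 75 tested genes of the FGF lists, 12 did so for palbociclib and 7 for indisulam, where 7.86% and 6.16% of all tested genes did. SDC1, named outside those rules, was among them for both drugs. For palbociclib, SPRY1 had a log2 ratio of 0.93 without indisulam and -0.54 with it, a departure from additivity of -1.47. For EGR1 these were 0.22 and -1.97, a departure of -2.19. For FOS they were 0.13 and -1.86, a departure of -1.99. DUSP5 went the other way, with -0.36 without and 0.18 with indisulam, a departure of 0.54. For indisulam, FGF13 had -0.24 without palbociclib and 0.50 with it, a departure of 0.74.

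In 4 of the 5 genes, a ratio of the pair was smaller than an upper estimate of the spread of 1 ratio from noise at that level. This estimate takes all the spread of the departure over genes of like level as noise between libraries. It was 0.26 for genes of 20 to 100 CPM and 0.28 above that. It is the size of 1 spread, which noise alone can exceed. The ratios below it were those of EGR1 and FOS for palbociclib alone, of DUSP5 for palbociclib with indisulam and of FGF13 for indisulam alone. For SPRY1, from 5 to 20 CPM, both ratios were larger than the estimate of 0.37, which does not place them beyond noise.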

How the results depend on the processing

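Of 48 counts of FGF ligands and receptors called under 8 alternative settings, 44 stayed within 1.5 times the count reported. Among these were the counts for the departure from additivity, 0 under every setting. For indisulam against untreated the count went from 3 to 1 with TMM factors, to 1 with upper-quartile factors and to 1 with median-of-ratios factors, FGF1 being the gene still called. FGF2 then had a log2 ratio of 0.96, 0.96 and 0.97 and FGF5 of 0.97, 0.97 and 0.98, so these settings differ from the main one by values close to the threshold. For the combination against indisulam the count went from 2 to 1 at a mean of 5 CPM or more, since FGF5 was not tested there. Of 150 ratios of single genes under 5 alternatives, none that was called changed sign, and FGFR1 for indisulam against untreated, not called, lay between -0.05 and 0.02. FGFR1 moved with TMM factors, with the combination at 0.44 relative to untreated and 0.07 relative to palbociclib. FGF1 in the combination against untreated lay between 6.19 and 7.58, most of which came from the pseudocount beside 2 untreated reads. A 1.5-fold threshold added FGFRL1 for indisulam against untreated and FGF2 for the combination against indisulam. No replicate could be left out, with 1 library per condition. No paired analysis was possible because each condition had 1 library and no replicate number. Depth limits FGFR2, FGFR3, FGFR4 and the other secreted FGFs, which had at most 15 reads in any library, beside a floor of 3 reads.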
